A study of Rattus norvegicus with 30 samples.

Results

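The interferon-response gene families were followed through the ileum of 30 rats after bariatric surgery. Members were taken by symbol alone, with no measured value: the signal transducer Stat2, the interferon regulatory factors (Irf), the oligoadenylate synthetases (Oas), the Ifit, Ifitm and other Ifi genes, the guanylate-binding proteins (Gbp), Mx1 and Mx2, the genes named Isg, and Rsad2, Usp18 and Rtp4. Of 14557 distinct symbols on the array, 45 matched, with 46 probe clusters between them, and the brightest cluster was kept for each symbol. A mean at or above the 25th percentile of all genes (a log2 signal of 2.33) was required for testing, which left 37 of the 45 members among 10918 genes. The 8 members below it were Gbp1, Gbp3, Gbp6, Ifitm2-ps2, Oas1d, Oas1e, Oas1f and Oas1h. Irf1, Mx2, Ifit1, Oas1a and Gbp2 were not analysed here. Irf2bp1, Irf2bpl and Isg20l2 matched by name only and are no interferon-induced effectors, and Ifitm2-ps2 is named as a pseudogene.

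All rats were male, wild-type Long-Evans animals aged 8 to 10 weeks, in 5 groups: Roux-en-Y bypass of the stomach (RYGB), the matching sham operation (Sham_RYGB), vertical sleeve gastrectomy (VSG), the VSG sham operation with paired feeding (Sham_VSG_PF) and the VSG sham operation alone (Sham_VSG). There were 6 rats and 6 arrays in each group, described as biological replicates. All animals had liquid diet from the day before surgery and isoflurane anaesthesia. For VSG a stapler transected about 80% of the stomach, and in its sham the stomach was pressed with blunt forceps along the same line. The labels give neither the RYGB procedure nor the time between surgery and sampling, and duodenum, named in the series description, was not analysed here. Signals are log2 values on which levels of different genes cannot be set against each other. In whole tissue, fewer cells of a type and less RNA per cell cannot be told apart.

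Interferons are secreted by cells that sense viral or bacterial nucleic acids and act through receptors that activate JAK kinases and STAT factors. STAT2 and IRF9 are parts of the factor that binds the interferon-stimulated response element (ISRE) in the promoters of target genes. The induced proteins block viral entry, translation and replication, and in the gut wall the epithelium responds strongly to type III interferon. Several Irf genes also have roles in blood cells that do not depend on interferon, Irf4 and Irf8 in B and myeloid cells among them.

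The ISRE is what many of these families share in their DNA, so the promoters with a match are shown for members described below, and for Oas1i as a close copy of Oas1b. The core searched was GAAANNGAAA on both strands, within 250 bases before and 50 after the start site in RefSeq promoters of rat build GRCr8. Of the 45 members 34 had a promoter in that table, and 15 of these (44.1%) held the core, against 1131 of 27457 genes (4.12%) over windows of the same length. The windows below run 5′ to 3′ on the gene's own strand, with the core in capitals, written TTTCNNTTTC where it lies on the opposite strand.
Irf7: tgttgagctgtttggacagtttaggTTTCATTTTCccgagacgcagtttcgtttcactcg
Ifit3: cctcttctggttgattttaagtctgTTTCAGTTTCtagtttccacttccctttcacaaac
Rsad2: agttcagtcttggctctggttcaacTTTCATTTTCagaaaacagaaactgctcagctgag
Oasl2: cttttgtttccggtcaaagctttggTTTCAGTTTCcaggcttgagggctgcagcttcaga
Oas1i: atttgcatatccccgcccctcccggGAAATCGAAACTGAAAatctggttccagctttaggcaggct
Oas1b: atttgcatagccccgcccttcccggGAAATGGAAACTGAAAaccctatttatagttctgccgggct
Gbp5: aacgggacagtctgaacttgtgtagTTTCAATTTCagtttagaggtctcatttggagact
Gbp7: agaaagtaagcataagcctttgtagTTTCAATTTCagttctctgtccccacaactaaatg
Ifi27: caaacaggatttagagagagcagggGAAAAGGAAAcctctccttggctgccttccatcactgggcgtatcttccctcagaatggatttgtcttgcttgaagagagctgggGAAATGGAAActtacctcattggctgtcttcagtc
Ifitm2: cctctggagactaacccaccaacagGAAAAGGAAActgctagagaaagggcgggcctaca
Ifitm3: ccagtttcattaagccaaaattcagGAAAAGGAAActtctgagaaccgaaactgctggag
Ifitm7: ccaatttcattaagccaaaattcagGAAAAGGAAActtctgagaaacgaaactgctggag
The Irf7 window is chr1:205800058-205800117 (minus strand) and the Ifit3 window chr1:241527257-241527316 (plus strand). Rsad2 is shown at chr6:48788233-48788292 (minus strand) and Oasl2 at chr12:47383302-47383361 (minus strand). The 2 Oas1 windows are chr12:41285165-41285230 (plus strand) for Oas1i and chr12:41395871-41395936 (minus strand) for Oas1b, and both hold 2 overlapping matches, 50 of their 66 bases being identical. Gbp5 lies at chr2:233910918-233910977 (plus strand) and Gbp7 at chr2:233948823-233948882 (plus strand), with the same core and 33 of 60 bases identical. Ifi27 holds 2 separate matches at chr6:128355118-128355262 (plus strand). Ifitm2 is at chr1:205482347-205482406 (minus strand). Ifitm3 is at chr1:205541768-205541827 (minus strand) and Ifitm7 at chr11:46606691-46606750 (plus strand), identical in 58 of 60 bases although on different chromosomes. Members of the Oas1, Ifitm and Gbp families resemble each other, and how far their probe clusters tell them apart was not tested. Mx1, Irf4, Irf5, Irf8, Stat2 and Oasl had a promoter in the table with no match, which says only that these letters are not in that window.

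Of 15 ileal absorptive cell markers 12 were tested, and their mean ran from 9.25 (Sham_VSG_PF replicate 5) to 10.24 (VSG replicate 3). The bile acid binding protein Fabp6, a defining marker, varied less and lay between 11.84 and 12.21 in all 30 arrays. No pair of arrays held identical values. The arrays differed in lymphoid genes: the mean of 14 tested B and plasma cell genes (20 were listed) was 4.11 to 4.96 in 19 arrays and 6.63 to 7.88 in the other 11, with no array between. Those 11 were 1 RYGB, 3 Sham_RYGB, 2 VSG, 2 Sham_VSG_PF and 3 Sham_VSG arrays. Fat cell genes were high (a list mean of 5.70 to 6.27, with 12 of 13 listed genes tested) in 3 RYGB arrays and 1 VSG array, against 3.84 to 4.39 in the others.

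After RYGB none of the 37 members passed the test. By limma with Benjamini-Hochberg adjustment over 10918 genes 0 of 37 had an adjusted p below 0.05, against a background of 0.183% of all genes, and 2 of 37 (5.41%) had an unadjusted p below 0.05, against 13% of all genes. More members were lower than higher after RYGB, 10 being higher and 27 lower, while 48% of all genes tested were higher. The median log2 difference of the members was -0.11, against -0.01 over all genes tested. The median 95% interval reached 0.38 to either side, so that differences smaller than that were mostly not detectable with 6 rats a group. Larger differences need not have been detectable either, since these intervals are not adjusted for the number of genes tested.

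Among the families of antiviral effectors, the dynamin-like GTPase Mx1, which blocks viral nucleocapsids, had the widest difference after RYGB. Mx1 was 3.08 at its lowest, 3.74 at the median and 4.62 at its highest in RYGB ilea, against 3.76, 4.69 and 5.73 in Sham_RYGB ilea. The groups overlapped, though 0 of 6 RYGB arrays lay above the Sham_RYGB mean. The log2 difference was -0.86 (95% interval -1.79 to 0.07, limma adjusted p = 0.420). With the B and plasma cell mean as a covariate it was -0.33 (adjusted p = 0.729), and over the arrays low in those genes alone it was -0.34 (adjusted p = 0.839).

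The membrane protein Ifitm2, whose family hinders fusion of viruses with endosomes, had 8.98, 9.22 and 9.44 (lowest, median, highest) in RYGB ilea, against 9.23, 9.55 and 9.88 in Sham_RYGB ilea. No RYGB array exceeded the sham mean, but the ranges overlapped. Its difference was -0.33 (95% interval -0.59 to -0.07), the member with the smallest p, and did not pass (limma adjusted p = 0.276). The other Ifitm genes differed by -0.20 for Ifitm1, 0.01 for Ifitm3 and -0.07 for Ifitm7. Ifit2, which binds viral RNA to stop its translation, had 4.34, 4.61 and 4.95 in RYGB ilea and 4.66, 4.84 and 5.61 in Sham_RYGB ilea. Its difference was -0.30 (95% interval -0.60 to -0.01, limma adjusted p = 0.371). It was -0.17 without Sham_RYGB replicate 1, the array highest in Ifit2, and -0.06 over the arrays low in B and plasma cell genes.

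Oasl2, of the family that senses double-stranded RNA, spread far more in RYGB ilea (4.23, 5.56 and 6.42) than in Sham_RYGB ilea (5.79, 5.97 and 6.47). The difference was -0.50 (95% interval -1.04 to 0.03, limma adjusted p = 0.415), and 2 of 6 RYGB arrays lay above the sham mean. Without RYGB replicate 2, the lowest array, it was -0.25. Stat2, which carries type I and III interferon signals to the nucleus, had 6.26, 6.94 and 7.23 in RYGB ilea and 6.86, 7.01 and 7.41 in Sham_RYGB ilea, a difference of -0.25 (95% interval -0.53 to 0.03, limma adjusted p = 0.435), or -0.14 without that same array. By family, 5 of 6 Oas genes, both Gbp genes, 5 of 6 Ifi genes and 5 of 8 Stat2 and Irf genes were lower. B and plasma cell genes were also lower on average, with a list mean of 4.85 ± 1.08 in RYGB and 5.98 ± 1.67 in Sham_RYGB ilea (SD, n = 6 each, ranges 4.27 to 7.06 and 4.25 to 7.88). The fat cell mean was 5.05 ± 0.97 in RYGB and 4.07 ± 0.16 in Sham_RYGB ilea. With the B and plasma cell covariate 12 members were higher and 25 lower, and over the arrays low in those genes 7 were higher and 30 lower. With the fat cell mean as a covariate 6 were higher and 31 lower, and without the 4 fat-rich arrays 7 were higher and 30 lower, with 0 of 37 passing by limma in each of these settings.

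**Figure D1:**
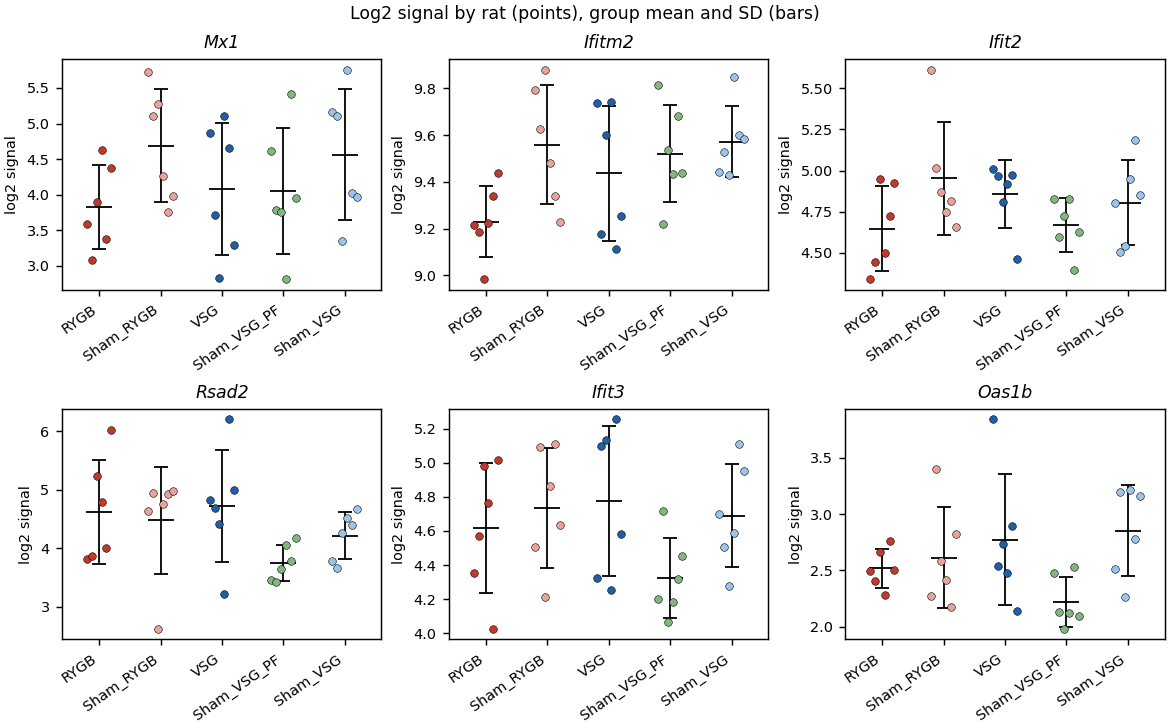
Log2 signal (vertical axis) of 6 members in each rat, by group along the horizontal axis, with bars for the mean and SD of 6 rats. Ranges of operated and sham rats overlap in Mx1, Ifitm2 and Ifit2, and Sham_VSG_PF rats are low in Rsad2, Ifit3 and Oas1b with overlap.

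After VSG, against the freely fed sham, no member passed either. Of the 37 members 16 were higher and 21 lower, while 43.5% of all genes were higher. The median was -0.08, against -0.03 over all genes. By limma 0 of 37 passed (background 0%), and 1 of 37 (2.7%) had an unadjusted p below 0.05, against 6.05% of all genes. That member was Ifi35, a binding partner of NMI, at 5.75, 5.97 and 6.22 in VSG ilea and 6.09, 6.20 and 6.49 in Sham_VSG ilea. The ranges overlapped, 0 of 6 VSG arrays lay above the sham mean, and the difference was -0.26 (95% interval -0.48 to -0.04, adjusted p = 0.788).

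Ifi30, a lysosomal thiol reductase of antigen processing, differed by -0.34 (95% interval -0.71 to 0.02, limma adjusted p = 0.825). Its values were 7.51, 7.60 and 8.34 in VSG ilea and 7.94, 8.08 and 8.39 in Sham_VSG ilea. In the other direction Irf7, the factor that amplifies type I interferon production, had 7.16, 7.95 and 8.33 in VSG ilea and 7.40, 7.65 and 7.76 in Sham_VSG ilea. It was above the sham mean in 5 of 6 VSG arrays, by 0.29 (95% interval -0.03 to 0.62, limma adjusted p = 0.828). Isg15, a ubiquitin-like modifier, had 8.45, 8.65 and 9.56 in VSG ilea and 8.24, 8.42 and 8.64 in Sham_VSG ilea, a difference of 0.31 (95% interval -0.06 to 0.69, limma adjusted p = 0.835). Without VSG replicate 5 it was 0.15 for Isg15, and without VSG replicate 4 it was 0.44 for Irf7. Irf8, a factor of B, dendritic and myeloid cells, had 7.32, 7.60 and 8.06 in VSG and 7.56, 7.95 and 8.48 in Sham_VSG ilea, a difference of -0.34 (limma adjusted p = 0.835). The B and plasma cell mean was 5.33 ± 1.53 in VSG, against 6.08 ± 1.45 in Sham_VSG ilea (SD, n = 6 each). With that mean as a covariate 16 members were again higher and 21 lower, and over the arrays low in those genes 15 were higher and 22 lower, with Irf8 at -0.54 and Ifi30 at -0.40 there, against -0.25 and -0.20 with the covariate. No member passed by limma in either setting.

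**Figure D2:**
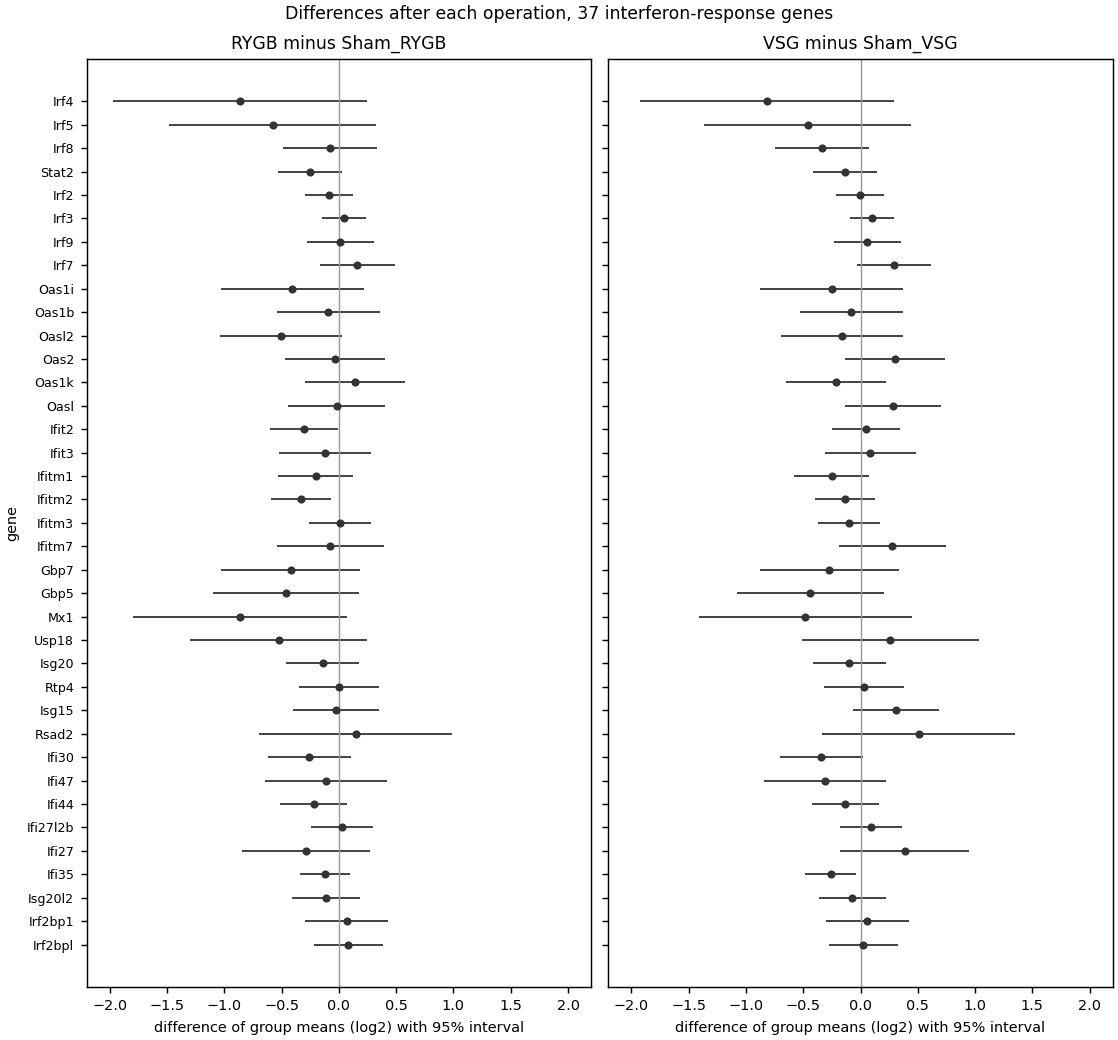
Difference of group means on the log2 scale (horizontal axis) with its 95% interval for each of the 37 tested members (vertical axis, grouped by family), RYGB minus Sham_RYGB on the left and VSG minus Sham_VSG on the right. No member passed the adjusted test in either comparison, and the widest intervals are those of Irf4, Mx1 and Irf5.

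Set against pair-fed shams, VSG ilea were higher in 4 members at an unadjusted p below 0.05 (10.8% of 37, against 5.94% of all genes), while by limma 0 of 37 passed after adjustment (background 0%). Rsad2, or viperin, which makes a chain-terminating nucleotide, had 3.22, 4.76 and 6.21 in VSG ilea and 3.42, 3.71 and 4.18 in Sham_VSG_PF ilea. The lowest and the highest of these 12 arrays were both VSG arrays, and 5 of 6 VSG arrays lay above the pair-fed mean. The difference of 0.97, or 1.96-fold, had a 95% interval of 0.13 to 1.81 (limma adjusted p = 0.780). Oas1b, a family member known in mice for flavivirus resistance, had 2.14, 2.64 and 3.84 in VSG ilea and 1.98, 2.13 and 2.53 in Sham_VSG_PF ilea, a difference of 0.55 (95% interval 0.10 to 1.00, limma adjusted p = 0.757) at levels close to the filter. Without VSG replicate 1, the VSG array high in fat cell genes, it was 0.34.

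Ifit3, a scaffold of the Ifit complex, had 4.26, 4.84 and 5.26 in VSG ilea and 4.07, 4.26 and 4.72 in Sham_VSG_PF ilea (difference 0.45, 95% interval 0.05 to 0.85, limma adjusted p = 0.780). Irf3, which starts transcription of interferon beta, had 7.22, 7.37 and 7.59 in VSG ilea and 7.08, 7.15 and 7.45 in Sham_VSG_PF ilea (difference 0.20, limma adjusted p = 0.832). Ifitm1 went the other way, by -0.28 (limma adjusted p = 0.865). Over all members 19 were higher and 18 lower, while 45.3% of all genes were higher. The median was 0.00, against -0.02 over all genes.

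Paired feeding alone, Sham_VSG_PF against Sham_VSG, gave 15 members higher and 22 lower, while 46.8% of all genes were higher. With the B and plasma cell covariate 19 members were higher and 18 lower. Without that covariate 0 of 37 passed by limma (background 0%) and 1 (2.7%) had an unadjusted p below 0.05, against 5.33% of all genes. Oas1b was again that member, at 1.98, 2.13 and 2.53 in Sham_VSG_PF ilea and 2.27, 2.97 and 3.21 in Sham_VSG ilea. Its difference was -0.63 (95% interval -1.08 to -0.18, limma adjusted p = 0.887), and 0 of 6 pair-fed arrays lay above the freely fed mean. This comparison and the previous one share the pair-fed arrays. Ifit3 differed by -0.37, Irf8 by -0.38, Oas2 by 0.34 and Ifi35 by -0.16 (limma adjusted p of 0.927 to 0.961).

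Between the shams of the 2 operations no member passed. Sham_RYGB against Sham_VSG gave 0 of 37 members by limma both after adjustment (background 0%) and at an unadjusted p below 0.05 (4.71% of all genes). Of the members 17 were higher and 20 lower, while 44.5% of all genes were higher. The smallest p values belonged to Irf8 (-0.33), Ifi35 (-0.18), Ifitm7 (0.32), Ifi47 (-0.34) and Ifi30 (-0.23), all with an adjusted p of 0.999. Ifitm7 was at 0.14 without Sham_RYGB replicate 4 and 0.49 without Sham_VSG replicate 5, and Ifi47 at -0.51 without Sham_RYGB replicate 2 and -0.22 without Sham_VSG replicate 5. The difference between the RYGB and VSG effects, each against its own sham, gave 0 of 37 by limma (background 0%), also unadjusted (5.72% of all genes). Its intervals were wider, at a median of 0.53 to either side. Ifit2 (-0.35), Ifi27 (-0.67), the ISG15 protease Usp18 (-0.79), Isg15 (-0.34) and Oas1k (0.35) came first, with limma adjusted p values of 0.889 to 0.942. Without VSG replicate 5 the values were -0.50 for Usp18 and -0.18 for Isg15, without Sham_RYGB replicate 1 -0.22 for Ifit2, and without Sham_RYGB replicate 2 0.21 for Oas1k. An F test for any difference among the 5 groups gave 0 of 37 by limma, against 0.128% of all genes, and 0 unadjusted against 10.6%.

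The rest of the pathway was also without a call. Of 106 listed ligands, receptors, sensors and other induced genes that are no members, 62 were tested, and 0 passed by limma in any of these comparisons. After RYGB 29 were higher and 33 lower (48% of all genes were higher), and 7 (11.3%) had an unadjusted p below 0.05, against 13% of all genes. In VSG against Sham_VSG 20 were higher and 42 lower (43.5% of all genes were higher), and 4 (6.45%) had such a p, against 6.05% of all genes. The type I ligands Ifna1, Ifna2, Ifnb1, Ifnk and Ifne lay below the filter with means of 1.56 to 2.09, while Ifna4 (3.34) and the type II ligand Ifng (3.27) were tested.

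Ifnlr1, the specific chain of the type III interferon receptor, was higher after both operations without passing. It averaged 4.55 ± 0.47 in RYGB and 3.99 ± 0.49 in Sham_RYGB ilea (SD, n = 6 each; log2 difference 0.56, 95% interval 0.11 to 1.01, limma adjusted p = 0.290). In VSG ilea it averaged 4.61 ± 0.40, against 3.96 ± 0.29 in Sham_VSG ilea (difference 0.65, 95% interval 0.20 to 1.10, limma adjusted p = 0.720). Against Sham_VSG_PF ilea the VSG difference was 0.30 (limma adjusted p = 0.903), and Sham_VSG_PF against Sham_VSG gave 0.35 (adjusted p = 0.955). Beside the group means, Ifnlr1 had a slope of -0.13 per log2 unit of the B and plasma cell mean (limma adjusted p = 0.0238). The TLR3 adaptor Ticam1 was 7.02 ± 0.24 in RYGB and 6.60 ± 0.14 in Sham_RYGB ilea (difference 0.41, limma adjusted p = 0.148), and the Toll-like receptor adaptor Myd88 differed by 0.24 (adjusted p = 0.239). Among induced genes Epsti1 differed by -0.27 and Ly6e by -0.83 after RYGB (limma adjusted p of 0.249 and 0.350), and Psmb10 by -0.31 and Trim21 by -0.32 after VSG against Sham_VSG (adjusted p of 0.776 and 0.787). Ly6e also rose with the B and plasma cell mean, by 0.44 per log2 unit (limma adjusted p = 2.95e-13), while Epsti1 had -0.01 (adjusted p = 0.643). Against pair-fed shams the RNA sensor Ifih1 differed by 0.27 and Znfx1 by 0.32 in VSG ilea (limma adjusted p of 0.660 and 0.741).

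Rats of the same group differed in many members. The median SD of the tested members within groups was 0.33, against 0.26 over all genes tested, and it was largest for Irf4 (0.99), Mx1 (0.83), Irf5 (0.81), Rsad2 (0.75) and Usp18 (0.69). Irf4, which drives plasma cell differentiation, spanned 3.83 to 6.48 in RYGB ilea, 4.50 to 7.20 in Sham_RYGB, 3.86 to 6.78 in VSG, 4.41 to 6.95 in Sham_VSG_PF and 4.92 to 7.41 in Sham_VSG ilea. Irf5, a mediator of Toll-like receptor signals in B and myeloid cells, spanned 5.23 to 6.49 in RYGB, 5.21 to 7.08 in Sham_RYGB, 4.92 to 7.23 in VSG, 5.25 to 7.16 in Sham_VSG_PF and 5.16 to 7.28 in Sham_VSG ilea. High and low rats occurred in each of the 5 groups.

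**Figure D3:**
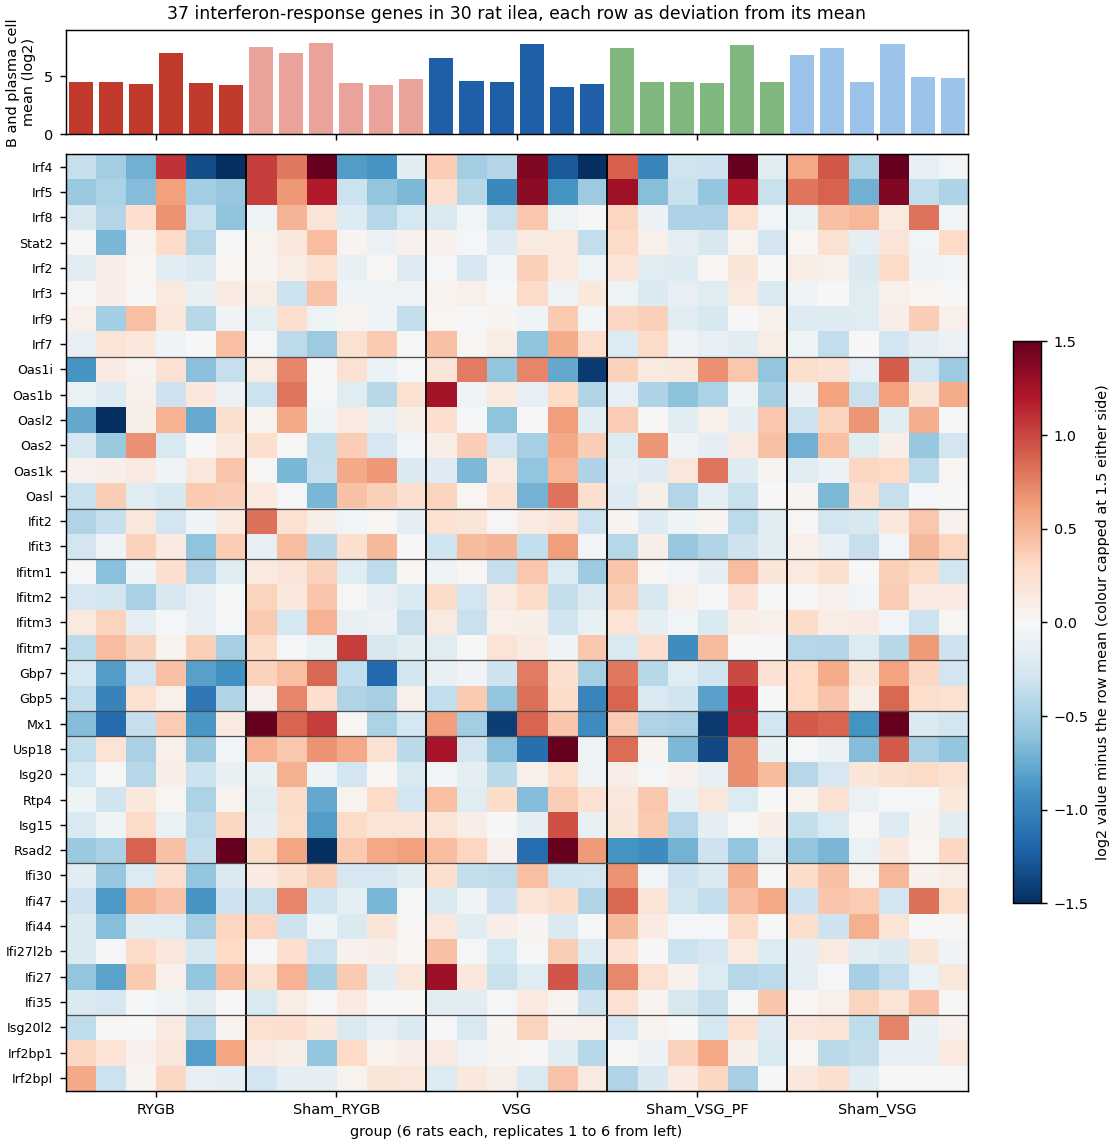
Each of the 37 tested members (lines of the map, by family) in each of 30 arrays (columns, by group), as the log2 signal minus the member's mean, with the B and plasma cell list mean above. Irf4, Irf5 and Mx1 are high in the arrays with a high B and plasma cell mean, while Rsad2 and Usp18 vary between rats of a group.

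The widest members, Irf4, Mx1 and Irf5, rose with the B and plasma cell genes of the sample. In a fit of each gene on the B and plasma cell mean beside the group means, 19 of 37 members (51.4%) had a limma adjusted p below 0.05, 15 rising and 4 falling, against 39.6% of all genes (18.7% rising and 20.8% falling). At an unadjusted p below 0.05 there were 21 of 37 (56.8%), against 47.1% of all genes. No array lay between both ranges of the list mean, so each slope sets 11 arrays against 19; among the 19 lower arrays alone 0 of 37 members passed by limma (lowest adjusted p 1.00). Other cell types moved with the same mean: 17 of 22 T and NK cell genes and 17 of 20 macrophage and dendritic cell genes rose, and 9 of 12 absorptive cell and 7 of 8 smooth muscle genes fell.

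Irf5 rose by 0.53 per log2 unit of the list mean (SE 0.02, limma adjusted p = 9.34e-17). It was 6.13, 6.92 and 7.28 (lowest, median, highest) in the 11 arrays high in B and plasma cell genes and 4.92, 5.32 and 5.56 in the 19 low ones. Irf4 rose by 0.63 per unit (SE 0.05, limma adjusted p = 6.27e-12), with 5.77, 6.43 and 7.41 in the high and 3.83, 4.87 and 5.34 in the low arrays. Ifi30 rose by 0.19 per unit (SE 0.02, limma adjusted p = 7.25e-09), with 8.01, 8.25 and 8.56 in the high and 7.29, 7.68 and 8.00 in the low arrays. In these 3 members (8.11% of 37, against 3.04% of all genes) the ranges did not overlap.

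Mx1 rose by 0.47 per unit (SE 0.06, limma adjusted p = 2.54e-07), with 4.62, 5.11 and 5.76 in the high and 2.81, 3.76 and 4.66 in the low arrays, a narrow overlap. The guanylate-binding proteins, GTPases that attack the vacuoles of intracellular microbes, rose too, Gbp7 by 0.30 (limma adjusted p = 8.14e-07) and Gbp5 by 0.25 (limma adjusted p = 0.000605). Of the Stat2 and Irf genes 6 of 8 rose, Stat2, Irf2, Irf3 and Irf8 by 0.06 to 0.12, and so did Ifitm1, Ifitm2 and Ifitm3 by 0.08 to 0.15. The remaining rising calls were Oas1i (0.20, limma adjusted p = 0.0113) and Isg20l2 (0.11, adjusted p = 0.00227). Isg20l2 is a member by name only. Rsad2 (-0.22, limma adjusted p = 0.0425), Oasl (-0.16, adjusted p = 0.00124), Irf7 (-0.12, adjusted p = 0.00131) and Oas1k (-0.12, adjusted p = 0.0336) fell. The rising and falling sets each contained members with an ISRE core, Gbp5 and Gbp7 above and Irf7 and Rsad2 below. With the smooth muscle mean as a further covariate 7 members passed, namely Irf4, Irf5, Mx1, Gbp7, Ifi30, Ifitm1 and Ifitm2, and without single arrays the number was 15 to 20. The calls of Rsad2 and Oas1k were the least stable of those named. Both were lost without VSG replicate 4 (limma adjusted p of 0.170 and 0.0702) and without VSG replicate 5 (0.0711 and 0.0567). The Rsad2 call also failed without any 1 of Sham_RYGB replicates 3, 4, 5 and 6 or VSG replicate 6. It failed too without any 1 of Sham_VSG replicates 1, 2 and 6 and Sham_VSG_PF replicates 1, 4 and 6. For Oas1k such arrays were Sham_RYGB replicates 2, 3, 4 and 5, Sham_VSG replicate 3 and Sham_VSG_PF replicates 4 and 5.

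**Figure D4:**
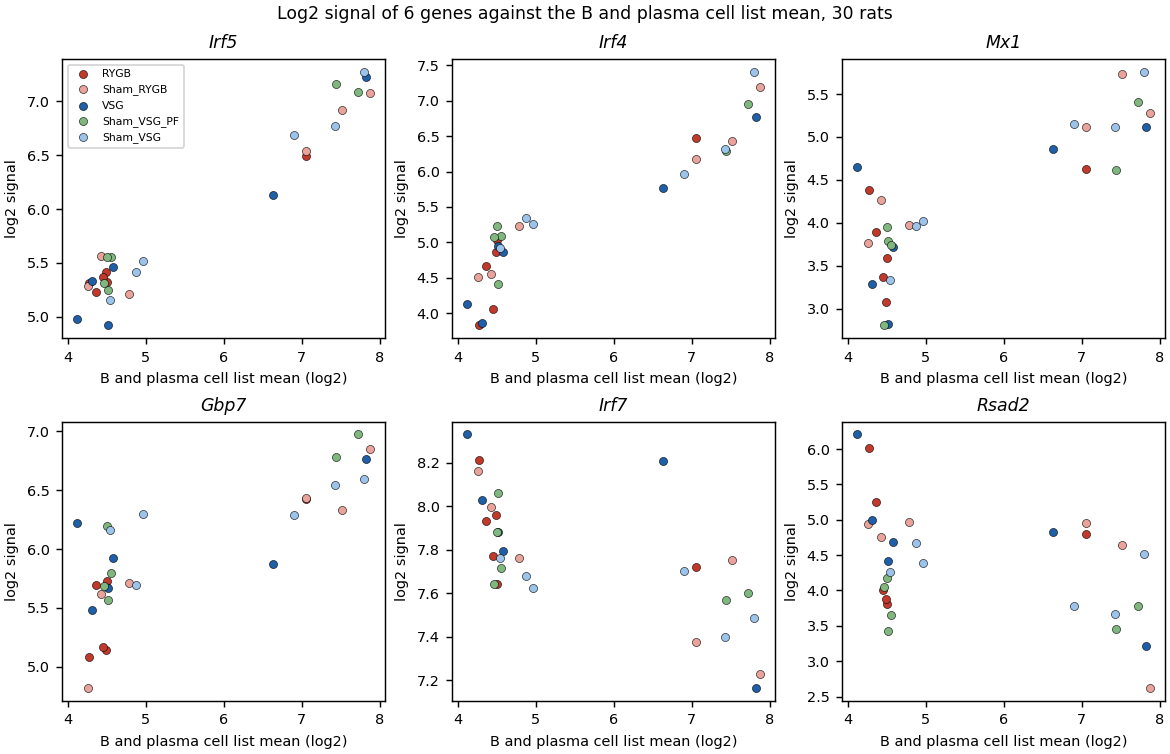
Log2 signal of 6 members (vertical axes) against the mean of 14 B and plasma cell genes of that array (horizontal axis, log2), with 1 point per rat coloured by group. Irf5 and Irf4 separate the 11 high arrays from the 19 low ones, and Mx1 and Gbp7 nearly do. Irf7 and Rsad2 have a lower median in the high arrays, with overlapping ranges.

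Of the slopes of members on Isg15 most were positive, and 1 passed the test. Each gene was fitted on Isg15 beside the group means and the B and plasma cell mean, a fit added after the values had been seen. Of the other 36 members 30 had a positive slope, against 54% of all genes, 18 (50%) had an unadjusted p below 0.05, against 7.43% of all genes, and 16 of those 18 were positive. After adjustment 1 of 36 passed by limma (2.78%, against 0.0275% of all genes), Ifi27l2b, a relative of the mitochondrial protein Ifi27. The 2 other genes that passed, Slfn1 (0.86) and Cyyr1 (-0.72), are no members and are named because the count is small.

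Ifi27l2b rose by 0.62 per log2 unit of Isg15 (SE 0.09, limma adjusted p = 0.00164). The slope was 0.61 over the 19 arrays low in B and plasma cell genes alone and 0.60 with the replicate number as a block, and neither passed by limma (adjusted p of 0.323 and 0.0698). Its deviations from the group means correlated with those of Isg15 at Pearson 0.89 and Spearman 0.83 in the 19 arrays low in B and plasma cell genes, and at 0.83 and 0.85 in the 11 high arrays. Without the 2 arrays farthest from the Isg15 median the Pearson values were 0.87 and 0.68. For these correlations the group means were taken within each set of arrays. The 1 RYGB array among the 11 high ones therefore had no deviation, and VSG and Sham_VSG_PF had 2 arrays each. Isg15 varied most among the 3 Sham_RYGB arrays there (8.46, 8.86 and 7.76). Correlations over the 11 arrays, for any member, thus rest largely on that group. Ifi27l2b itself varied little and lay between 10.38 and 11.14 over all 30 rats. Rsad2 had a slope of 1.57 (SE 0.30, limma adjusted p = 0.0532), Ifi27 of 1.09 (adjusted p = 0.108), Ifit3 of 0.66 (adjusted p = 0.180) and Ifi47 of 0.90 (adjusted p = 0.287). In the 11 high arrays the Pearson value of Ifit3 was 0.83, and -0.35 without the 2 arrays farthest from the Isg15 median; for Ifi47 it was 0.54 and -0.17, and for Rsad2 0.89 and 0.78. Of 36 members 15 had a negative Pearson value in those 11 arrays, and 18 without the 2 arrays. In the 19 low arrays 6 of 36 were negative, both with and without 2 arrays. Shares over all genes are not given for either set, so these counts cannot be called particular to the members.

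Mx1 (0.82), Usp18 (1.13), Oasl2 (0.85), Gbp5 (0.78), Rtp4 (0.55), Irf9 (0.47), Oasl (0.51) and Irf7 (0.38) followed at limma adjusted p values of 0.339 to 0.425. All 6 Oas, both Ifit, both Gbp and all 6 Ifi genes had positive slopes, as did all 4 single effectors other than Isg15. Irf3 (-0.18) and Ifitm3 (-0.28) had negative slopes at an unadjusted p below 0.05. Ifitm2 (-0.16), Irf4 (-0.31), Irf5 (-0.07) and Irf2bpl (-0.09) were negative without such a p. The Ifitm family was thus split, with Ifitm1 (0.16) and Ifitm7 (0.12) positive. For Mx1 the Pearson correlation was -0.13 in the 11 high arrays and 0.67 in the 19 low ones. Between single rats, VSG replicate 5 was highest of all 30 in Isg15 (9.56), Rsad2 (6.21) and Usp18 (5.74), and Sham_RYGB replicate 3 was lowest in Isg15 (7.76) and Rsad2 (2.62). Without VSG replicate 5 the slope of Usp18 was 0.71 and that of Mx1 0.53, while that of Ifi27l2b was 0.67 and that of Rsad2 1.52. Rsad2 passed by limma when Sham_RYGB replicate 4, VSG replicate 2, 4 or 6, Sham_VSG_PF replicate 2 or 3 or Sham_VSG replicate 4 was left out (adjusted p of 0.00837 to 0.0497), and Ifi27 passed without Sham_VSG_PF replicate 3 (adjusted p = 0.0274).

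Other interferon-induced genes that are no members took the same direction, 33 of 35 with a positive slope on Isg15 (54% of all genes) and 18 of 35 with an unadjusted p below 0.05 (7.43% of all genes), while 0 passed by limma after adjustment. Slfn4 (1.42, adjusted p = 0.0643) and Irgm (1.09, adjusted p = 0.0772) came closest, and Ifng itself had a slope of 1.26 (limma adjusted p = 0.321). Of 13 sensors and adaptors 10 were positive, Dhx58 (0.96) and Zbp1 (0.76) first, while ligands, receptors and signalling genes were split, with 5 positive and 9 negative. Against the same shares of all genes, of the T and NK cell genes 21 of 22 had a positive slope and 9 of 22 were at an unadjusted p below 0.05 (0 after adjustment by limma), and their list mean ran from 4.62 to 6.17 in RYGB, 4.78 to 6.31 in Sham_RYGB, 4.91 to 6.36 in VSG, 5.19 to 6.65 in Sham_VSG_PF and 5.49 to 6.35 in Sham_VSG ilea. Their part in the relation was not tested.

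**Figure D5:**
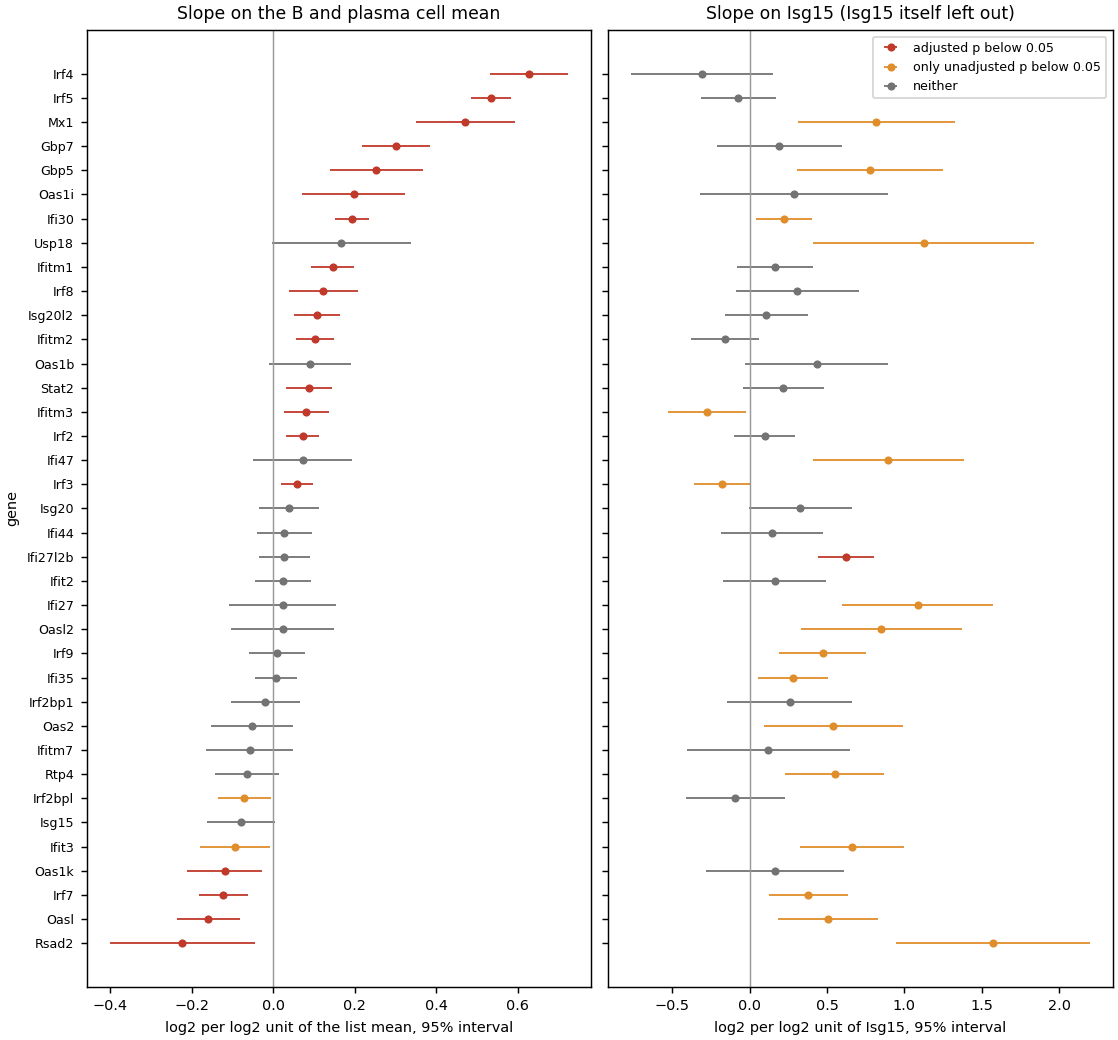
Slope of each member (vertical axis) on the B and plasma cell list mean (left) and on Isg15 (right), in log2 units per log2 unit with 95% intervals, coloured by whether the adjusted or only the unadjusted p is below 0.05. On the left 15 members rise and 4 fall past the adjusted threshold, and on the right Ifi27l2b alone passes it while 30 of 36 slopes are positive.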

How the data were processed

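Values were deposited as log2 signals, made by the authors with RMA (Affymetrix Expression Console, version 1.3.0.187), per the submitters' processing notes; RMA corrects background, quantile normalizes probes and summarises each transcript cluster. RNA was purified with RNeasy, amplified with Ovation PicoSL WTA V2 and biotin labelled with the Encore module, per the labels' protocols. Detection calls and scan dates were not used here. Of 36685 clusters, 14824 carried 1 symbol, 829 several and 21032 none in the platform annotation.

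The limma package 3.58.1 (R 4.3.3) fitted group means over all 30 arrays (lmFit and eBayes, 25 residual degrees of freedom, two-sided, Benjamini-Hochberg over 10918 genes, threshold 0.05). The fit was tested on simulated data. Precision is limited by the number of arrays. Full statistics were given for the 5 members with the smallest p per comparison, or the largest slopes past the threshold, plus fixed key genes; figures were drawn with matplotlib 3.10.9. Members, gene lists and tests were chosen with earlier results of these data known, and the Isg15 fit after seeing the values. Alternatives covered scaling, filters, samples in the fit, weights, moderation, covariates, subsets of arrays, thresholds and leaving out each array. Replicate numbers were not treated as pairing the arrays across groups, and whether they do was not settled.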

Additional observations from a re-analysis of the deposited data

Results flagged for a closer look

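Each member was examined in each group of 6 for a single rat far from the other 5, by Dixon's test at 95%. Of 225 groups 15 had one, a share not far above the 5% or so that chance gives. The share over all genes is not given, so the arrays below are a listing and not a trait of these members. In RYGB ilea Irf5 stood high in replicate 4 (6.49, others 5.23 to 5.41), the RYGB array high in B and plasma cell genes, and Irf2bp1 was low in replicate 5 (4.12) and Gbp3 in replicate 1 (1.67). In Sham_RYGB ilea Rsad2 was low in replicate 3 (2.62, others 4.64 to 4.97) and so was Irf2bp1 (4.37), while Ifit2 was high in replicate 1 (5.61) and Oasl2 in replicate 2 (6.47). In VSG ilea replicate 5 was high in Isg15 (9.56, others 8.45 to 8.79), Irf9 (7.70, others 7.25 to 7.36) and Oas1e (2.34), and Ifit2 was low in replicate 6 (4.46). In Sham_VSG_PF ilea replicate 4 was high in Oas1f (2.50) and Oas1k (3.38). In Sham_VSG ilea Ifitm7 was high in replicate 5 (3.17, others 2.10 to 2.33) and Gbp1 low in replicate 4 (0.956). Gbp1, Gbp3, Oas1e and Oas1f lie below the filter on dim genes.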

How the results depend on the processing

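For each of the 6 group comparisons 0 members passed in all 16 other settings and with each of 30 arrays left out, and the lowest adjusted p in any of them was 0.0527 (VSG against Sham_VSG_PF) and 0.112 (RYGB against Sham_RYGB). The F test gave 2 members, Ifi30 and Irf4, with the smooth muscle mean as a covariate. The count of 19 slopes on the B and plasma cell mean became 7 with that covariate and 0 with only the arrays low in B and plasma cell genes, where Mx1 had -0.66 and Stat2 -0.030 per unit; without single arrays it was 15 to 20. The count of 1 slope on Isg15 became 2 with each array centred on its median, 2 with a variance trend and robust moderation, 2 at an adjusted p below 0.10 (Rsad2 added each time) and 0 with only the arrays low in B and plasma cell genes, and was 1 to 3 without single arrays. With the replicate number as a block the Isg15 count was 0 (limma adjusted p = 0.0698 for Ifi27l2b), and the block gave 0 in each group comparison. Correlations of same-numbered arrays ran from -0.57 to 0.68, and 2 to 5 of 6 pairs exceeded 0.1. These values do not settle whether the numbers pair arrays. Centring gave 11 members higher in Sham_VSG_PF against Sham_VSG, where 15 were reported, and 13 in Sham_RYGB against Sham_VSG, where 17 were. Of 4538 recomputed single-gene values, 4373 kept direction and side of the threshold. A further 104 changed sign without a call, and 2 slopes on the B and plasma cell mean were reversed. Of slopes on that mean 40 lost their call and 7 gained one, and on Isg15 2 lost it and 10 gained one. No member passed in any setting of the 6 group comparisons, so in those only direction could vary. Neither scaling moved the median of all genes by more than 0.1, and the cause of these shifts was not tested. Members near the filter, such as Oas1b and Oas2, and differences inside the intervals are beyond what 6 arrays a group resolve.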
